A study of Mus musculus with 6 samples.

Results

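The genes described here are those whose RNA was listed at least 2 times higher in every pLV-SEMA6A library than in any pLV-Control library. SL4 is a luciferase-expressing mouse colorectal cancer (CRC) cell line, and RNA-seq was run on 3 pLV-SEMA6A libraries, from SL4 cells that carry a lentivirus for stable SEMA6A overexpression, and on 3 pLV-Control libraries, labelled as SL4 cells without that overexpression. The paper names these controls both as SL4 and as pLV-Control, so whether they carried a control lentivirus is not certain. A row was a member when it had a gene name, a mean of at least 2 TPM (a level scaled by transcript length and by the total of the library) over the pLV-SEMA6A libraries, and a lowest pLV-SEMA6A value at least 2 times its highest pLV-Control value. Sema6a, Ppat, Uchl1, Nefl, S100a4 and Ehd2 also met these limits and were left out. The rule found 106 members among the 53700 rows listed. With the 6 left-out genes it held for 1.00% of the 11184 rows with a pLV-SEMA6A mean of at least 2 TPM. The members were thus chosen by their TPM in all 6 libraries, through the contrast between the groups, and their values are given as a description, with no test.

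The sources used here do not say that the libraries of a group came from separate cultures, and they describe no second pLV-SEMA6A line, so SEMA6A overexpression and any other difference between the 2 cell populations cannot be told apart. Sema6a was listed at 0 throughout pLV-Control, whereas pLV-SEMA6A held 98.7, 118 and 112 TPM. Defining markers of colon epithelium were nearly absent: 15 of 16 listed markers stayed under 1 TPM in every library and 4 were at 0 throughout, with summed levels of 2.17 to 3.25 TPM in pLV-Control and 0.68 to 1.66 TPM in pLV-SEMA6A. Libraries summed to between 977400 and 986444 TPM. TPM keeps no sequencing depth, so the reads behind a value are unknown, and a listed 0 may be a failed estimate: mt-Co3 was at 0.33 TPM in 1 pLV-SEMA6A library but between 140.6 and 450.1 TPM in the rest.

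The rule joined rows of 2 unlike kinds. In 59 members every pLV-SEMA6A library was above 0, and these are called doubled genes below. With the left-out genes, this stricter form of the rule held for 0.581% of the 11184 rows. The remaining 47 members, 44.3% of the list, were at 0 in all pLV-Control libraries and also at 0 in at least 1 pLV-SEMA6A library, so their lowest pLV-SEMA6A value of 0 met the limit of 2 times 0. The name "at least doubled" does not describe these 47 rows, since at least 1 pLV-SEMA6A library was no higher than the controls. The same rule turned round, with the groups exchanged, held for 307 rows, of which 242 were above 0 in every pLV-Control library and 65 were met as 0 against 0. That form starts from rows with a pLV-Control mean of at least 2 TPM, whose number is not given here. For genes averaging at least 1 TPM, library medians were 18.77 to 18.86 TPM in pLV-Control and 17.45 to 17.69 TPM in pLV-SEMA6A. The counts in the 2 directions are thus not directly comparable.

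**Figure D1:**
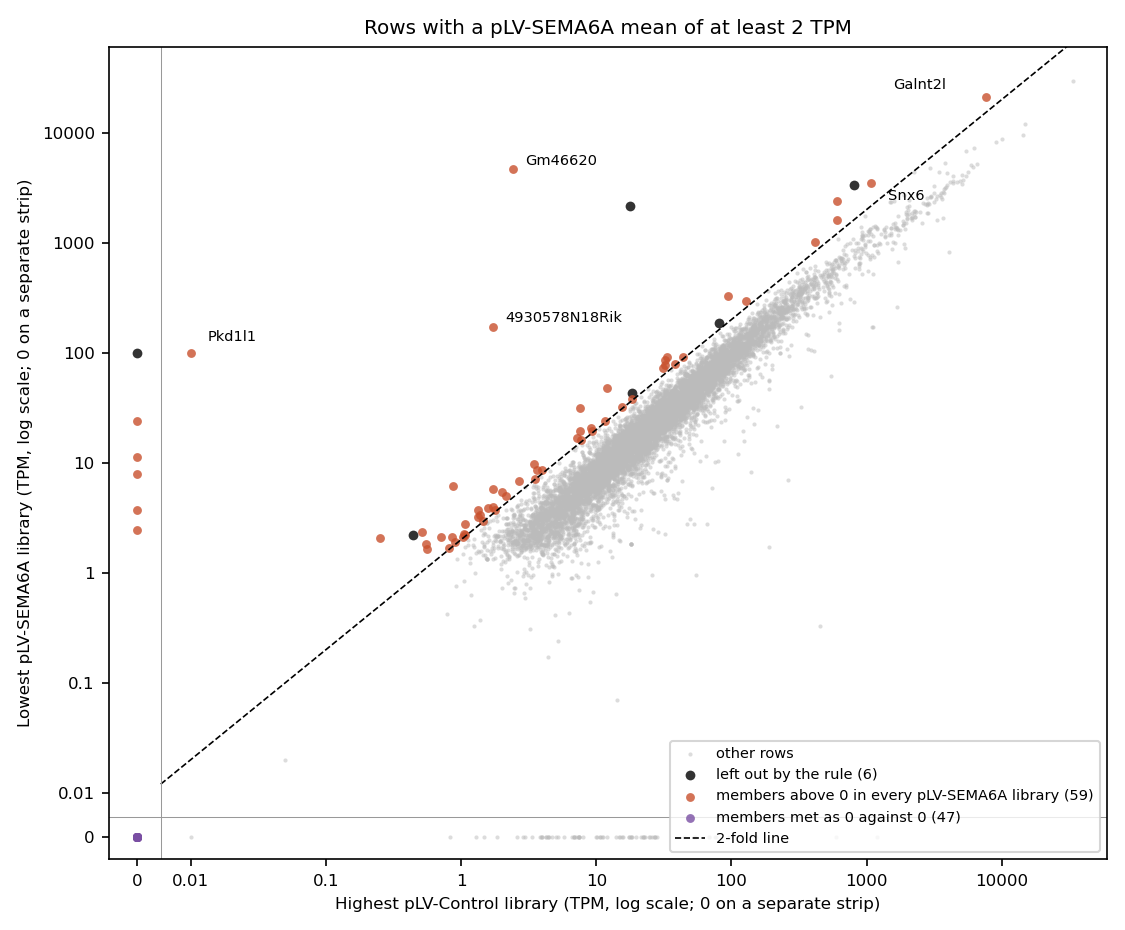
Highest pLV-Control value against lowest pLV-SEMA6A value, both in TPM on log axes with a separate strip for 0, for each of the 11184 rows with a pLV-SEMA6A mean of at least 2 TPM. Members above 0 in every pLV-SEMA6A library lie on or above the dashed 2-fold line, as the rule requires, and Gm46620, 4930578N18Rik and Pkd1l1 stand far above it and the 47 members met as 0 against 0 fall on 1 point in the lower left corner.

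Few doubled genes were near 0 in pLV-Control. Of all 106 members, 53 were near 0 in pLV-Control, meaning at most 0.1 TPM in the highest library, but 47 of these were the rows met as 0 against 0. Among the 59 doubled genes, 6 were near 0. Pkd1l1 was at 0, 0.01 and 0 TPM, and Snora70, Gm10197, Gm46223, Gm43712 and Gm43655 were listed at 0 in all 3 pLV-Control libraries. A further 22 doubled genes had a highest pLV-Control value between 0.1 and 2 TPM, 14 lay between 2 and 10 TPM, and 17 were at 10 TPM or more. The count of 6 moved to 10 without pLV-Control replicate 1, and to 13, 12 and 13 without pLV-SEMA6A replicates 1, 2 and 3.

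How far a gene stood above the limit depended on the measure. In the 54 with a pLV-Control value above 0, the median of the lowest pLV-SEMA6A over the highest pLV-Control value was 2.44. This ratio reached 3 in 13 genes and 5 in 5 genes, namely Pkd1l1, Gm46620, 4930578N18Rik, Gm42427 and Mrip-ps. The ratio of the group means was under 3 in 25 of the 54 genes and at least 5 in 13. Together the 59 genes held 1.08% to 1.10% of the listed TPM in the pLV-Control libraries and 3.69% to 3.96% in pLV-SEMA6A, most of it from Galnt2l, which held 0.762% to 0.781% and 2.14% to 2.31%. The replicates were closest for the abundant genes: the median coefficient of variation in pLV-SEMA6A was 3.07% for the 18 genes averaging 50 TPM or more and 14.4% for the 29 genes with a mean under 10 TPM.

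Just inside the 2-fold limit were Ildr2 with a ratio of 2.01, Cenpb with 2.04 and Gm4316 with 2.05, and just outside it were Tenm3 and Aven with 1.99 and Nedd9 with 1.98. At the limit of 2 TPM for the pLV-SEMA6A mean, A230020J21Rik (2.01 TPM), Gm4430 (2.06 TPM) and Zfp469 (2.11 TPM) were the last doubled genes inside, with the rows met as 0 against 0 not counted, and Cd164l2 (1.94 TPM), AV039307 (1.79 TPM) and Gm17195 (1.49 TPM) the first outside.

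Genes that rise in a cell line after a transgene is introduced can belong to one pathway, to one piece of a chromosome, or to no common group. Their annotation helps to tell these apart only in part, since poly-A RNA holds protein-coding messages, long non-coding RNAs and transcribed pseudogenes, and sequence shared between copies can let one transcript's reads be credited to another gene. The kinds of genes found are therefore given with the sequence each shares with other genes.

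By GENCODE M21 annotation, matched by identifier, 37 of the 59 doubled genes (62.7%) were protein coding, against 92.5% of the 11184 rows with a mean of at least 2 TPM. Another 14 (23.7%, against 3.90%) were long non-coding or unclassified transcripts, 5 (8.47%, against 2.90%) were pseudogenes, 1 was a mitochondrial ribosomal RNA, and 2 were not matched. These shares describe genes that the contrast itself chose. The doubled genes lay on 20 chromosomes of the nuclear and mitochondrial genomes, with at most 8 on 1 chromosome (chromosome 8). Only 2 sets of them lay within 200 kb of each other without overlapping, Mt1 with Mt2 at 5.51 kb and H2ac8 with H3c8 at 34.6 kb.

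**Figure D2:**
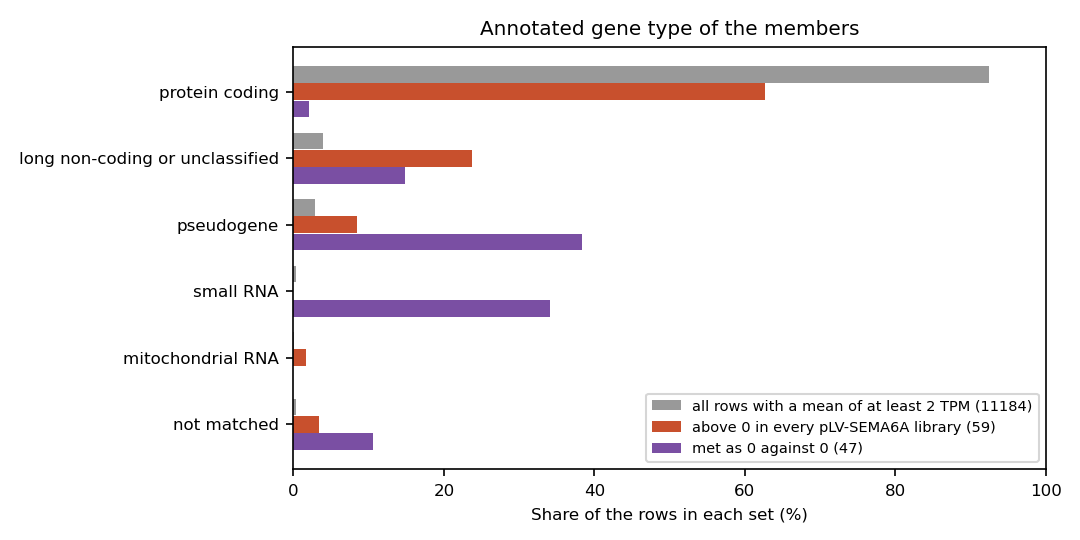
Share of rows (%) in each annotated gene type, for all 11184 rows with a pLV-SEMA6A mean of at least 2 TPM, for the 59 members above 0 in every pLV-SEMA6A library and for the 47 members met as 0 against 0. Protein-coding genes made up 92.5%, 62.7% and 2.13% of the 3 sets, and small RNAs 34.0% of the last.

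Mt1, Mt2 and Slc30a1 are 3 members known for metal handling. Metallothioneins are small cysteine-rich proteins that bind zinc and copper, and SLC30A1 is the zinc exporter of the plasma membrane. In cells with excess zinc the transcription factor MTF1 binds metal response elements, short motifs in the promoters of these genes. The RefSeq bases just before the start listed there for each gene (GRCm38.p6, gene strand, 250 bases) are shown because these 3 members share that known regulator. Capitals mark the metal response element core, searched as TGCACNC and TGCGCNC on both strands.
Mt1, chr8:94178839-94179088, plus strand: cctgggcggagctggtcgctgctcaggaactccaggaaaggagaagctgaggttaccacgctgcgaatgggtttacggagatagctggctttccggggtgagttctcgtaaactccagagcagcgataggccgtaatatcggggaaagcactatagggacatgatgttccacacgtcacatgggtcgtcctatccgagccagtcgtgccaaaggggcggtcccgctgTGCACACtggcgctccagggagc
Mt2, chr8:94172368-94172617, plus strand: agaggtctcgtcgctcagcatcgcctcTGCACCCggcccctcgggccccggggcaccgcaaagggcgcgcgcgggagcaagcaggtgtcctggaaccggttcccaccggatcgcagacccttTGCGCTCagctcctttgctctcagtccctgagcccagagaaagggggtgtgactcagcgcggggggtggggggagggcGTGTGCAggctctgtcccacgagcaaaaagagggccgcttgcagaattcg
Slc30a1, chr1:191906531-191906780, plus strand: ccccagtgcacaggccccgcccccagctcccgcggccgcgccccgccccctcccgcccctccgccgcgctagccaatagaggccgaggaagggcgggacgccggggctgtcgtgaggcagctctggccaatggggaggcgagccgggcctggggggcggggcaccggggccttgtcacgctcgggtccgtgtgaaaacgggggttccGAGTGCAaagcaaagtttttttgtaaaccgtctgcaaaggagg
In these windows Mt2 held 3 matches, 2 on its own strand, while Mt1 and Slc30a1 held 1 each, that of Slc30a1 on the opposite strand. Bases past either end of a window were not searched. The counts thus depend on the listed start and do not give the number of elements in the whole promoter of a gene. Of all 32851 mouse promoters given there, 21.4% held at least 1 match and 1.26% held at least 3. Of the 33 doubled genes with a promoter there, 6 held a match: these 3, H3c8, Blnk and Etl4. A second motif, the CArG box, was searched in the same bases as CC, 6 letters A or T, and GG. It was found in 1 of the 33, Cbr2, and in 1.47% of all promoters. The actin-related members Acta2 and Coro2b held none, while Tagln and Pstpip2 had no promoter there and were not searched. Only this exact form was counted, so a box with any other letter in its core would be missed. Both motifs were chosen after the members were known, and a match is a description of letters.

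Mt1 was at 597, 581 and 604 TPM in pLV-Control, against 1596, 1683 and 1651 TPM in pLV-SEMA6A. Mt2 was nearly equal to Mt1 in pLV-Control, with 589.7, 604 and 552 TPM, but exceeded it in pLV-SEMA6A, with 2436, 2430.1 and 2386 TPM. The ratio of the group means was 2.77 for Mt1 and 4.16 for Mt2. Slc30a1 was far less abundant, at 1.71, 1.5 and 2.14 TPM in pLV-Control, against 4.96, 5.44 and 5.57 TPM in pLV-SEMA6A. Mt2 has 58.1% of its 31-base stretches in common with further genes, almost all with the neighbouring model Gm45774, which was at 0.79 and 1.59 TPM in the 2 groups. The other metallothioneins were not part of this pattern, since Mt4 was at 0 in every library and Mt3 reached 0.21 TPM in 1 pLV-Control library and was at 0 in the others.

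Genes outside the member list were tested with limma on log2(TPM + 1), in a fit of 12510 genes that also held all 106 members. Of these 12510 genes, 19.5% were called higher in pLV-SEMA6A and 28.2% lower at an adjusted p under 0.05. With each library centred on its median, 3370 genes were called higher and 2474 lower, in place of 2436 and 3523. Slc39a10, a zinc importer of the plasma membrane, fell from 21.1 ± 0.730 to 7.57 ± 0.171 TPM (SD, n = 3 each) with a log2 fold change of −1.37 with a standard error of 0.05 (limma, adjusted p = 9.06e-06). It was thus lower where the exporter Slc30a1 was higher. Mtf1 itself was at 8.13 ± 1.58 and 9.93 ± 0.620 TPM (SD, n = 3 each) and did not pass (limma, adjusted p = 0.125), though it did without pLV-Control replicate 1 (limma, adjusted p = 0.0134). Both were chosen after the members were seen.

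A further 4 members, put together by role after they were seen, encode actin or proteins known to bind it. ACTA2 is the actin of smooth muscle and of contractile fibroblasts, transgelin binds actin filaments in the same cells, coronin 2B is an actin-binding protein, and PSTPIP2 is an F-BAR protein that bends membranes and bundles actin. Acta2 was at 30.2, 29.9 and 33.4 TPM in pLV-Control, against 90.8, 95.7 and 95.7 TPM in pLV-SEMA6A. Tagln, at 30.3, 32.0 and 32.0 TPM, reached 80.8, 77.2 and 81.7 TPM. Coro2b varied more, with 23.6, 24.6 and 31.2 TPM against 78.4, 97.4 and 72.6 TPM, and Pstpip2 was at 7.19 ± 0.497 and 16.5 ± 0.521 TPM (SD, n = 3 each). In all 4 the lowest pLV-SEMA6A library lay above 2 times the highest control, which the rule fixed. Other genes hold 62.2% of the 31-base stretches of Tagln, mainly Gm48529 at 0.62 and 1.39 TPM, and 1.39% of those of Acta2.

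Of other contractile genes, chosen after the members were seen, 3 were also higher. Myl9, a regulatory myosin light chain, rose from 22.2 ± 1.76 to 50.5 ± 3.41 TPM (SD, n = 3 each) with a log2 fold change of 1.15 (limma, adjusted p = 6.23e-05). Cnn1, calponin of smooth muscle, rose by a log2 fold change of 1.28 (limma, adjusted p = 0.00146) and Actg2, the enteric smooth-muscle actin, by 0.42 (limma, adjusted p = 0.00144). Myh11 and Des, further smooth-muscle genes, were hardly expressed: the first stayed at or under 0.05 TPM in every library, and the second ranged from 0.33 to 1.41 TPM.

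Apart from the secreted ligand Wnt7b, given below, 6 doubled genes were put together by role as matrix or secreted proteins. Igfbp6, which binds insulin-like growth factor II, was the most abundant, at 123, 129 and 123 TPM in pLV-Control, against 295, 299.9 and 315 TPM in pLV-SEMA6A. Ptn, encoding the heparin-binding growth factor pleiotrophin, was at 7.64, 7.08 and 6.70 TPM and at 23.8, 21.9 and 19.2 TPM. Relative to their mean, the 3 libraries of each group lay closer together for Igfbp6 than for Ptn. Lrrc17, a secreted leucine-rich repeat protein, was at 2.80 ± 0.866 and 8.86 ± 0.432 TPM, and Angptl4, an inhibitor of lipoprotein lipase, at 1.01 ± 0.284 and 4.35 ± 0.745 TPM (SD, n = 3 each). The collagen genes in the list were low: Col1a1 was at 1.27 ± 0.106 and 3.6 ± 0.244 TPM and Col12a1 at 0.947 ± 0.188 and 3.01 ± 0.234 TPM (SD, n = 3 each).

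Col1a1 is also a fibroblast marker. The summed level of 9 fibroblast markers was 127 to 143 TPM in pLV-Control and 185 to 190.2 TPM in pLV-SEMA6A, nearly all of it Col3a1, which rose from 119 ± 8.05 to 172 ± 3.85 TPM (SD, n = 3 each; limma, adjusted p = 0.000345). Of the other 3 markers tested with limma, Pdgfra and Pdgfrb fell and 1 did not pass, and the call for Pdgfra was lost with the replicate block (limma, adjusted p = 0.0681) and on leaving out any 1 of 3 libraries. The part of fibroblast-like cells in the levels of Col1a1, Acta2 and Tagln was not tested.

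Wnt7b and Fzd6 are a Wnt ligand and a Frizzled receptor. Wnt7b was at 31.1, 32.3 and 30.8 TPM in pLV-Control, against 88.5, 90.2 and 85.1 TPM in pLV-SEMA6A. Fzd6 was at 1.57, 1.71 and 1.51 TPM and at 8.01, 5.75 and 7.0 TPM, so the ligand was the more abundant and the receptor the more changed of the pair, with ratios of means of 2.80 and 4.33. Other Frizzled receptors went both ways: Fzd7 fell from 7.28 ± 0.184 to 4.50 ± 0.0473 TPM (SD, n = 3 each; limma, adjusted p = 0.000740), and Fzd1 rose by a log2 fold change of 0.39 (limma, adjusted p = 0.0184), a call lost in 5 of the 10 alternatives: with no filter on low values, with the replicate block (limma, adjusted p = 0.0601) and without pLV-Control replicate 1, pLV-SEMA6A replicate 1 or pLV-SEMA6A replicate 3. The co-receptor Lrp6 was at 24.3 and 25.04 TPM (limma, adjusted p = 0.650).

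A set of 4 low-abundance members carries names from the immune system or immunoglobulin-like proteins: Ildr2, Igsf5, Blnk, an adaptor of B-cell receptor signalling, and Cd209c, a C-type lectin of the DC-SIGN family. Their pLV-SEMA6A means were between 2.41 and 7.83 TPM, and their ratios of means between 2.31 and 3.66. Igsf5 was highest among them in relative terms, at 1.92, 1.12 and 2.01 TPM against 6.93, 5.39 and 6.14 TPM. Other genes hold 29.8% of the 31-base stretches of Igsf5, 24.7% of Cd209c, 10.4% of Ildr2 and 1.66% of Blnk. Leukocyte markers did not accompany them: 11 of 12 stayed under 1 TPM in every library and 5 were at 0 throughout, with sums of 1.14 to 2.80 TPM in pLV-Control and 1.11 to 1.90 TPM in pLV-SEMA6A.

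Among metabolic members, Cth encodes cystathionine gamma-lyase, which makes cysteine from cystathionine. It was at 42.6, 43.8 and 42.6 TPM in pLV-Control, against 93.6, 94.3 and 91.2 TPM in pLV-SEMA6A, the tightest replicates of this group. Cbr2, a carbonyl reductase, was at 10.2 ± 1.18 and 25.3 ± 1.58 TPM, Rbks, ribokinase, at 0.907 ± 0.150 and 2.49 ± 0.285 TPM, and Slc2a6, a hexose transporter, at 0.470 ± 0.231 and 2.38 ± 0.342 TPM (SD, n = 3 each). Of the 31-base stretches of Cbr2, 15.0% occur in another gene.

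Galnt2l had by far the highest level of all members. It was at 7519.7, 7510.6 and 7703 TPM in pLV-Control, against 21531, 22637 and 20889.8 TPM in pLV-SEMA6A, a ratio of means of 2.86. Its name is that of a protein like the GalNAc-transferase GALNT2, which starts mucin-type O-glycosylation. Of its 31-base stretches 99.3% occur in other genes, and Galnt2 holds 97.5% of them. Galnt2 itself was listed at only 20.2 ± 3.11 and 26.9 ± 1.80 TPM (SD, n = 3 each), so the 2 models share nearly all their sequence and differed 375-fold and 806-fold in listed mean level in pLV-Control and pLV-SEMA6A. Galnt2 rose by a log2 fold change of 0.40 (limma, adjusted p = 0.0219), a call lost with no filter on low values and on leaving out any 1 of 4 libraries. On GRCm38 the Galnt2l model spans 4434882 bases of chromosome 8 and overlaps 149 other listed rows, among them the doubled genes 6430548M08Rik, Zfp469 and Gm4316. How the authors' counting divided reads among overlapping or near-identical models is not given in the sources used here, and the level of Galnt2l is uncertain for that reason.

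Snx6 encodes sorting nexin 6, a part of the machinery that returns membrane proteins from endosomes to the Golgi. It was at 1025, 1011 and 1075 TPM in pLV-Control, against 3803, 4019 and 3489 TPM in pLV-SEMA6A, and 3.40% of its 31-base stretches recur elsewhere in the annotation. The expressed genes around it on chromosome 12 were not doubled. Eapp, the nearest at 50.5 kb, fell from 28.4 ± 3.45 to 17.95 ± 2.19 TPM (SD, n = 3 each; limma, adjusted p = 0.00417). Sptssa, farther out on the same side at 89.8 kb, was at 45.5 and 46.4 TPM, and Cfl2, 63.1 kb away on the other side, at 197 and 178 TPM in the 2 groups. Tbcc, a cofactor of tubulin folding, was at 6.12 ± 0.980 and 17.4 ± 0.896 TPM (SD, n = 3 each). Etl4, also called Skt, was at 0.50, 0.47 and 0.51 TPM and at 2.42, 4.36 and 2.33 TPM, and 6430548M08Rik at 2.21 ± 0.409 and 7.48 ± 0.975 TPM (SD, n = 3 each).

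Apart from the histones, 5 members put together by role as nuclear factors had ratios of means from 2.13 to 2.96. Dhx9, an RNA helicase, was at 38.5, 37.0 and 38.2 TPM in pLV-Control, against 81.0, 81.6 and 79.6 TPM in pLV-SEMA6A. Cenpb, which binds a motif in centromeric repeats, was at 17.0 ± 1.42 and 38.8 ± 1.63 TPM, Rgcc, a regulator of the cell cycle, at 13.5 ± 2.05 and 35.3 ± 3.22 TPM, and Cd3eap, a subunit of RNA polymerase I, at 8.79 ± 0.663 and 20.2 ± 0.700 TPM (SD, n = 3 each). Zfp469, annotated as a long non-coding RNA in GENCODE M21, was at 0.713 ± 0.105 and 2.11 ± 0.430 TPM (SD, n = 3 each).

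The histone members were low and scattered. H2ac8 was at 1.65, 0.56 and 1.78 TPM in pLV-Control, against 3.70, 5.65 and 8.23 TPM in pLV-SEMA6A, H2ac11 at 0, 0.63 and 1.34 TPM and at 3.86, 7.18 and 3.19 TPM, and H3c8 at 0.20, 0.55 and 0.44 TPM and at 1.82, 4.18 and 1.83 TPM. Replication-dependent histone messages normally end without a poly-A tail, and poly-A RNA was selected here. The 64 such genes listed summed to 122 to 132 TPM in pLV-Control and 163 to 165 TPM in pLV-SEMA6A. These models share sequence with many other histone genes, over 47.9% of the stretches of H2ac8, 79.8% of H2ac11 and 60.2% of H3c8, so their single values are uncertain.

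The only mitochondrial member, mt-Rnr2, encodes the large ribosomal RNA of mitochondria. It was at 413, 359.8 and 388 TPM in pLV-Control, against 1058, 1006 and 1004 TPM in pLV-SEMA6A. The small ribosomal RNA mt-Rnr1, next to it, was at 517 ± 45.8 and 522 ± 32.7 TPM (SD, n = 3 each; limma, adjusted p = 0.878). Mitochondrial messages went both ways, with mt-Nd1 rising by a log2 fold change of 0.75 (limma, adjusted p = 7.53e-06) and mt-Co1 falling by 0.54 (limma, adjusted p = 1.58e-05). The 13 mitochondrial messages summed to 56193 to 62226 TPM in pLV-Control and 58975 to 60397 TPM in pLV-SEMA6A, ranges that overlap.

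**Figure D3:**
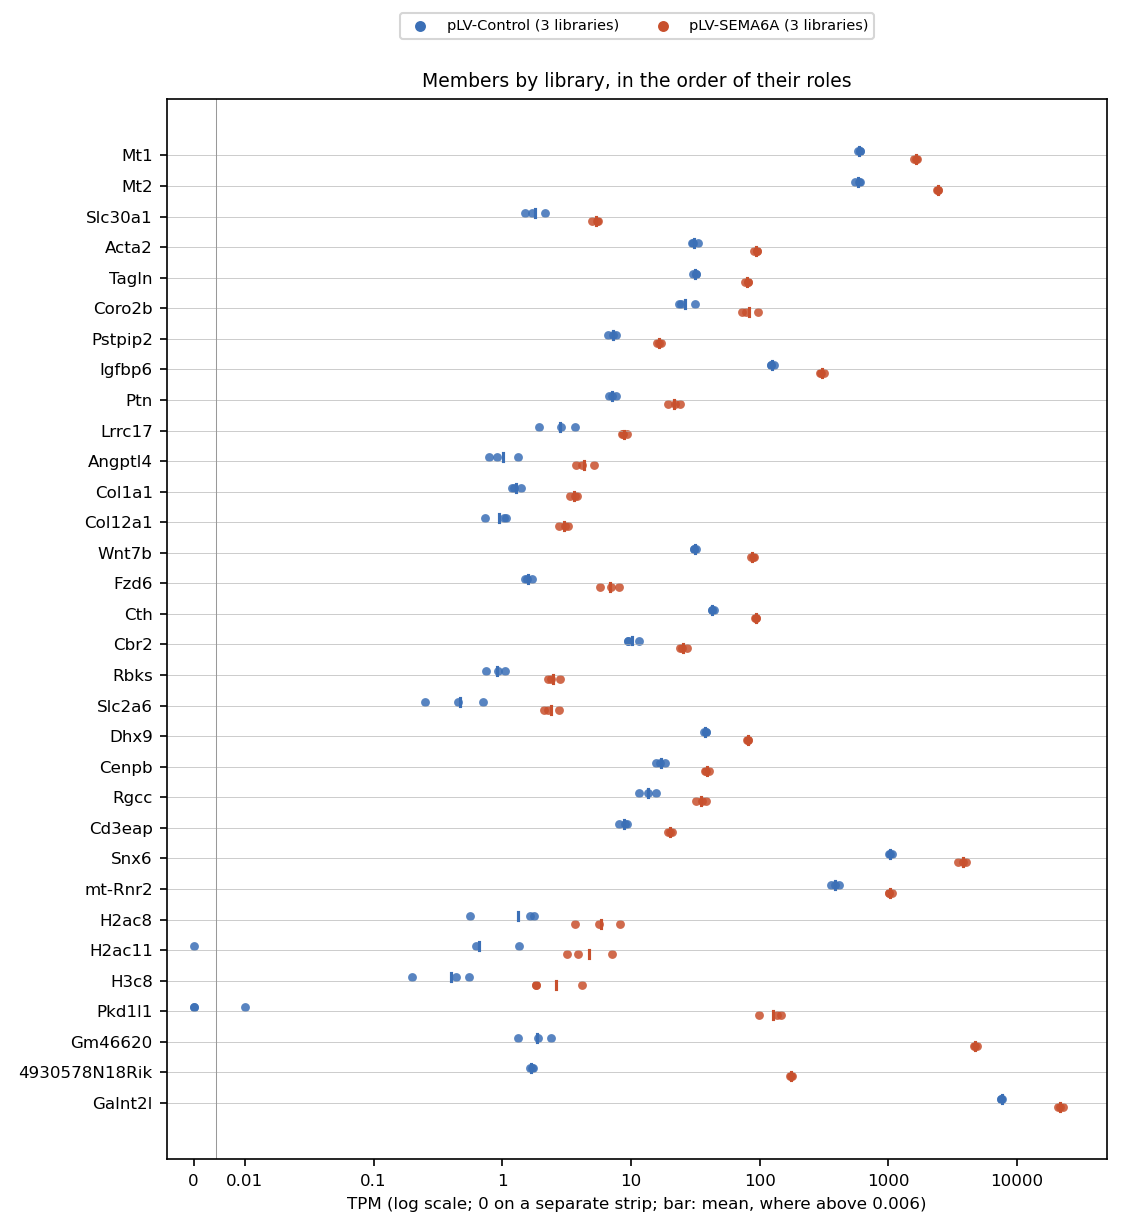
TPM of 32 doubled genes in each of the 3 pLV-Control and 3 pLV-SEMA6A libraries, on a log axis with a separate strip for 0; bars give group means where above 0.006 TPM. The groups are apart in every gene, as the rule requires, and the distance between them is far larger in Pkd1l1, Gm46620 and 4930578N18Rik.

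Pkd1l1 was the 1 coding gene with an established name that was near 0 in pLV-Control, and it was abundant in pLV-SEMA6A. It encodes a member of the polycystin family, which pairs with polycystin 2 in cilia of the embryonic node, where left and right are set. It was at 0, 0.01 and 0 TPM in pLV-Control, against 135, 147 and 99.1 TPM in pLV-SEMA6A. No 31-base stretch of its transcripts, up to 7631 bases long, occurs in another gene. Its nearest expressed neighbour Hus1, 19.9 kb away, was at 11.3 ± 0.502 and 11.7 ± 0.537 TPM (SD, n = 3 each; limma, adjusted p = 0.625). The next genes out were lower in pLV-SEMA6A: Tns3, 162 kb away, fell by a log2 fold change of 0.56 (limma, adjusted p = 0.000133), and Upp1, 145 kb away, fell by 0.78 (limma, adjusted p = 0.00765).

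The polycystin family as a whole did not follow Pkd1l1. Of the 8 genes of that list 4 were expressed enough to test, and besides Pkd1l1 these were Pkd2, which rose by a log2 fold change of 0.20 from 46.4 ± 0.335 to 53.5 ± 1.33 TPM (SD, n = 3 each; limma, adjusted p = 0.00329), Pkd1l3, which fell from 3.01 ± 0.757 to 1.33 ± 0.259 TPM (SD, n = 3 each; limma, adjusted p = 0.0146), and Pkd1, which did not pass (limma, adjusted p = 0.315).

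4930578N18Rik, a long non-coding RNA of chromosome 16, was at 1.72, 1.70 and 1.63 TPM in pLV-Control, against 173, 178 and 174 TPM in pLV-SEMA6A, a ratio of means of 104 with replicates within a few percent. Like Pkd1l1 it shares no 31-base stretch with another gene. Its neighbours differed far less: Hspa13, 356 kb away, was at 34.9 and 32.8 TPM (limma, adjusted p = 0.0766), and Nrip1, 131 kb away, at 10.97 and 15.9 TPM (limma, adjusted p = 0.0211), a call lost in 4 of the 10 alternatives.

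Gm46620, a long non-coding RNA model on chromosome 18, was the second most abundant member, at 2.41, 1.32 and 1.89 TPM in pLV-Control, against 4702, 4917 and 4630.8 TPM in pLV-SEMA6A. Its nearest expressed neighbour Zfp236, 1.40 kb away, was at 18.7, 18.5 and 17.6 TPM and at 46.4, 18.9 and 15.0 TPM, so 1 of the 3 pLV-SEMA6A libraries stood apart there. On the other side, Zfp516 was at 26.6 and 20.4 TPM in the 2 groups.

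Gm46620 is 1 of 6 doubled genes, on 5 chromosomes, that share sequence with each other. Gm46620, Gm43305, Gm42031, Gm42427, Gm46223 and Gm4316 share 31-base stretches in all 15 pairs, from 66 to 1645 stretches a pair. Snx6 shares far fewer with some of them: 13 with Gm4316, 11 with Gm42031, and 1 each with Gm42427 and Gm43305. Gm42427 holds 89.2% of the stretches of Gm46620 and 90.1% of those of Gm46223, and Gm43305 holds 60.9% of those of Gm42031.

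The 6 models spanned a wide range of levels. Gm43305 was at 88.0, 83.2 and 94.6 TPM in pLV-Control, against 379, 410.3 and 326 TPM in pLV-SEMA6A. Gm42031 was at 6.21, 7.60 and 0 TPM and at 40.2, 31.3 and 32.9 TPM. Gm46223 was listed at 0 in pLV-Control, against 7.84, 8.12 and 8.32 TPM in pLV-SEMA6A, Gm42427 was at 0.227 ± 0.0208 and 2.30 ± 0.308 TPM, and Gm4316 at 0.907 ± 0.146 and 2.38 ± 0.217 TPM (SD, n = 3 each). Summed over the 6 models the level was 93.4 to 97.6 TPM in pLV-Control and 5002 to 5372 TPM in pLV-SEMA6A. Since reads from shared stretches could be credited to any copy, the split of this sum between models is uncertain, and the 6 rows are not 6 separate observations.

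**Figure D4:**
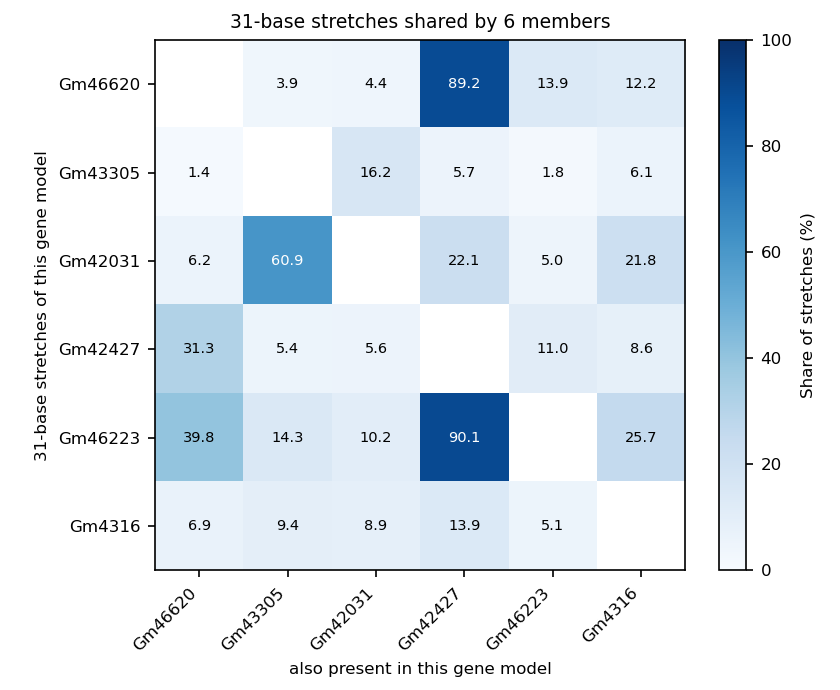
Share (%) of the 31-base stretches of the gene model in each row that also occur in the gene model in each column, for 6 non-coding or pseudogene members; the diagonal is blank. Gm42427 holds 89.2% of Gm46620 and 90.1% of Gm46223, and every pair shares some sequence.

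Other non-coding doubled genes were lower. Gm42793 was at 8.88 ± 0.219 and 24.2 ± 4.18 TPM, Gm20005 at 1.98 ± 1.74 and 14.7 ± 5.39 TPM, Gm12415 at 2.5 ± 0.936 and 11.1 ± 1.73 TPM and Gm13203 at 1.29 ± 0.438 and 5.23 ± 1.26 TPM (SD, n = 3 each). For Gm42793, 20.5% of the stretches occur in Spp1, the abundant message of osteopontin. The last 3 share none, and the spread of Gm20005 came from pLV-Control replicate 2 at 3.99 TPM and pLV-SEMA6A replicate 3 at 8.54 TPM. AL603707.1, not matched to the annotation, was at 11.9, 0 and 0 TPM and at 47.3, 62.0 and 93.1 TPM, so its ratio of 3.97 rested on 1 control library. The remaining non-coding and pseudogene members, 4930447F24Rik, Gm12903, Gm4430 and A230020J21Rik, had pLV-SEMA6A means of 4.49, 2.31, 2.06 and 2.01 TPM. Gm12903 shares 96.7% of its stretches with D130007C19Rik, and A230020J21Rik, annotated as antisense, shares 48.1% with Flvcr1. Reads from that shared part of the latter pair cannot be told apart without strand.

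Several small models share a part or most of their sequence with an expressed gene. Mrip-ps, a pseudogene with 93.2% of its stretches in Mprip, was at 0.85, 0.87 and 0 TPM in pLV-Control, against 14.8, 6.19 and 7.0 TPM in pLV-SEMA6A, while Mprip rose by a log2 fold change of 0.16 (limma, adjusted p = 0.00477). Gm10197, a model of 201 bases with 97.1% of its stretches in Mxi1, was listed at 0 in pLV-Control, against 11.3, 16.9 and 22.1 TPM in pLV-SEMA6A. The parents moved little or in the other direction. Gm43712 shares 59.4% with Eef1b2, which fell from 876 ± 20.5 to 740.5 ± 18.3 TPM (SD, n = 3 each; limma, adjusted p = 0.000591), and was listed at 0 against 6.37, 6.61 and 2.45 TPM. Gm43655 shares 18.2% with Hint1 and was listed at 0 against 3.73, 4.19 and 6.95 TPM. Snora70, a small nucleolar RNA that was not matched, was listed at 0 against 49.7, 23.8 and 77.5 TPM.

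The 47 members met as 0 against 0 were short and mostly shared their sequence with other genes. Of these, 36 were above 0 in 1 pLV-SEMA6A library and 11 in 2. They comprised 16 small nuclear or nucleolar RNAs, 18 pseudogenes, 7 long non-coding or unclassified models, 1 coding model and 5 rows that were not matched. Gm25767 was the highest, at 0, 0 and 147.7 TPM, followed by Gm23723 at 0, 55.6 and 37.8 TPM and Gm26130 at 0, 73.8 and 17.9 TPM. Which library held the value varied: Snord22 was above 0 only in pLV-SEMA6A replicate 1 (77.1 TPM), and Snora41 only in replicate 2 (55.6 TPM). In all, 15 of the 47 rows were above 0 in replicate 1, 24 in replicate 2 and 19 in replicate 3. With the groups exchanged, 57 of the 65 such rows were above 0 in 1 pLV-Control library and 8 in 2.

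Their longest transcripts ran from 124 to 396 bases with a median of 180, against a median of 1875 bases for the doubled genes and 3273.5 bases for the 11142 rows that had a transcript and a mean of at least 2 TPM. Of the 42 with a transcript, 31 shared over 50% of their stretches with other genes and 14 shared all of them, as did Snord22 with its host gene Snhg1 and Snora7a with Rpl32. Among the 57 doubled genes with a transcript, 13 shared over 50% and 30 under 5%. In a short model a given TPM stands for fewer reads than in a long one, because TPM divides by length. The median share was 83.2% in the first class and 4.59% in the second.

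**Figure D5:**
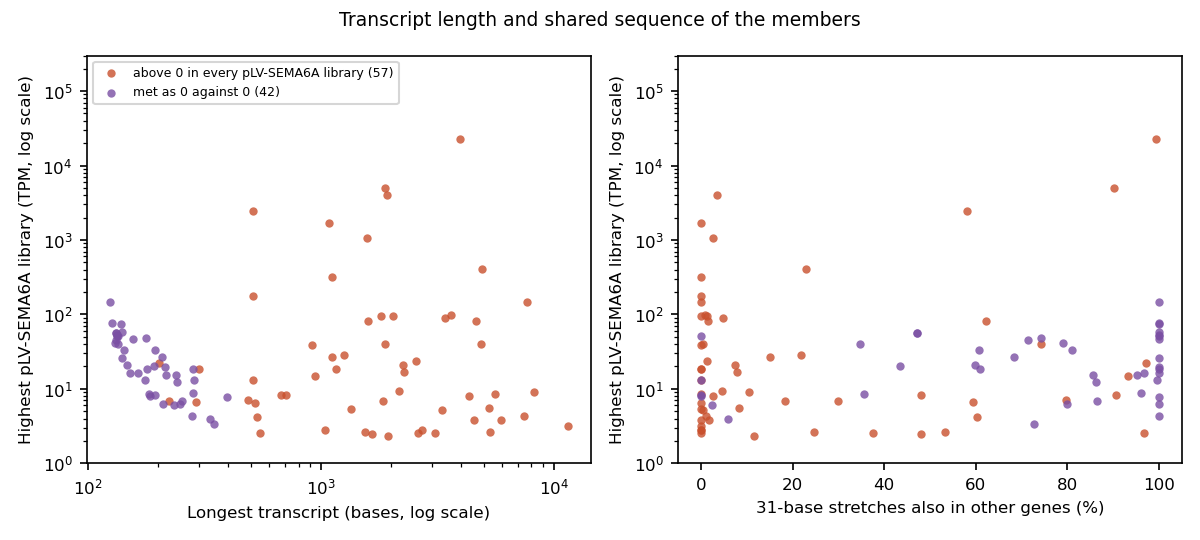
Highest pLV-SEMA6A value (TPM, log axis) of each member against its longest transcript (bases, log axis, left) and against the share of its 31-base stretches that occur in other genes (%, right), for the 57 and 42 members with a transcript. Members met as 0 against 0 lie between 124 and 396 bases, and the shortest have the highest listed values.

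Transcripts of the introduced gene gave little shared sequence: among doubled genes with a transcript only Angptl4 shares any 31-base stretch with Sema6a, and it shares 1. Vector sequence beyond Sema6a is not used here.

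Other gene lists give the setting in which the members stood. Genes of lysosomes and membrane traffic, among which Snx6 is not counted, went both ways, with 5 of 12 tested higher and 6 lower in pLV-SEMA6A, and a median log2 fold change of −0.12 against −0.06 over all genes tested. Polycomb genes had 3 of 14 higher and 5 lower, and genes of DNA methylation and silencing 4 of 15 higher and 4 lower, with medians of −0.13 and 0.04, where 19.5% of all genes tested were higher and 28.2% lower. The 3 higher polycomb genes came to 1 with no filter on low values and without pLV-Control replicate 1 or 3 or pLV-SEMA6A replicate 2 or 3. Among imprinted genes 2 of 4 tested were higher and 0 lower: Peg10 rose from 14.3 ± 0.481 to 26.7 ± 0.852 TPM (SD, n = 3 each; limma, adjusted p = 4.12e-05), and Plagl1 from 9.26 ± 0.230 to 17.3 ± 2.11 TPM (SD, n = 3 each; limma, adjusted p = 0.000586). Of 2 germline genes tested 1 was lower, a call lost with no filter on low values, with each library centred on its median and on leaving out any 1 of 5 libraries. Of 2 neuronal markers tested Ncam1 was higher, at 23.2 ± 0.767 and 36.8 ± 0.762 TPM (SD, n = 3 each; limma, adjusted p = 6.77e-05), while 12 of the 15 neuronal markers stayed under 1 TPM in every library. All 5 endothelial markers also stayed under 1 TPM. These counts are by limma with an adjusted p under 0.05 over all 12510 genes. Over all lists 17 genes that are not members were higher and 20 lower (19 and 18 with each library centred on its median), and 2 listed genes, Col1a1 and Pkd1l1, were members. Besides the numbers tested that are given above, these totals cover 4 fibroblast, 3 polycystin, 1 colon epithelial and 1 leukocyte gene outside the members. They are to be read beside the shares of all genes tested, 19.5% higher and 28.2% lower.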

How the data were processed

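The authors' mRNA was captured by oligo(dT), fragmented and reverse transcribed with random primers, and the deposited table gives TPM for 6 libraries with 2 decimals. The submitters' processing notes name mm39, HISAT, Bowtie2 and RSEM, without versions or roles. Strand use is not given in the sources used here. The authors' group means were not used.

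Members were found by the rule on TPM. Members and lists were chosen with earlier results of these data known. Members named are those highest in pLV-SEMA6A, those with the largest ratios, those near 0 in pLV-Control and those at the limits; others were chosen after their values were seen.

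Non-members were compared on log2(TPM + 1), which understates changes of low genes, with limma 3.58.1 (trend) in R 4.3.3. The fit and its Benjamini-Hochberg adjustment covered all 12510 genes averaging at least 1 TPM, members included. An exact permutation test with 3 libraries a group reaches p = 0.1 at best. P-values measure the spread between these libraries. The fit was tested on simulated data.

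Types, neighbours and 31-base stretches (either strand) came from GENCODE M21 on GRCm38, matching 52147 identifiers (97.1%), not the authors' build. Promoters came from RefSeq.

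Alternatives were other fold, level and near-0 limits, a pseudocount of 1 on both sides, a pseudocount of 0.1 in limma, no filter, median scaling, the replicate block, and leaving out each library. Requiring every pLV-SEMA6A library above 0 was added after seeing the data, as were its counts under these alternatives. Same-numbered libraries did not deviate together (mean correlation −0.06, from −0.08 to −0.02).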

Additional observations from a re-analysis of the deposited data

How the results depend on the processing

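The rule's own limits moved the count most. With a fold limit of 1.5 there were 287 members, of which 240 were above 0 in every pLV-SEMA6A library, and with a limit of 3 there were 65 and 18. With 1 TPM added to both sides, 35 members remained, all above 0 in every pLV-SEMA6A library, and 6 were near 0 in pLV-Control in place of 53. Requiring every pLV-SEMA6A library above 0 left 59. Scaling each library to its median raised every ratio, so it could lose no doubled gene, and it added 13. Leaving out 1 library gave 107 to 140 members, with 43 to 71 near 0, and 74 to 85 doubled genes, with 8 to 13 near 0, since fewer libraries loosen the fold limit. The replicate number as a block, which the data gave no reason to use, gave limma 2168 genes higher and 3059 lower. The direction of the doubled genes was fixed by the rule and was not put to a test by these alternatives. Of the 31 ratios of means that moved beyond the spread between replicates, 22 moved on adding 1 TPM. The unknown depth limits all low values.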
